A study of Mus musculus with 2 samples.

Results

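Tight junctions close the gap between neighbouring epithelial cells at the apical end of their sides. Their strands are built of claudins, membrane proteins whose extracellular loops set which ions and water pass between cells. Cldn2 and Cldn15 are known as pore-forming claudins, which let small cations through. Cldn1, Cldn3, Cldn4 and Cldn8 are counted as sealing claudins, Cldn7 and Cldn23 have a debated or less settled part in the barrier, occludin (Ocln) is a further strand protein, and ZO-1 (Tjp1) is the plaque protein that ties strands to actin. These 10 genes were followed here on expression arrays of mouse colon with and without the prostaglandin E2 receptor EP4 in the epithelium. They were chosen by symbol: every gene probe whose RefSeq accession belonged to 1 of them was taken, which gave 12 probes for 10 of the 22909 genes named on the arrays.

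Total RNA of whole colon of C57BL/6 mice carrying Villin-Cre (control) or Villin-Cre; EP4flox/flox (EP4 cKO) was compared on 2 Agilent 1-colour arrays, 1 per genotype, and the methods give an age of 8 weeks. Both genotypes carry the Villin-Cre transgene, whose Villin promoter drives Cre in the intestinal epithelium, so cells of the colon wall outside the epithelium keep the EP4 gene, Ptger4. Each array received RNA put together from 3 pools of colon, as the labels state. Since each genotype had 1 array, differences could not be checked against replicates, no p-value is given, and each value describes these arrays.

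Signals are the processed intensities scaled so that the trimmed mean of each array is 2500, and a log2 ratio is that of EP4 cKO over Villin-Cre as labelled. An error printed with a ± sign is the error model of the scanner software for the spots concerned (1 spot for each probe of the 10 genes), so it leaves out the spread between mice, pools and arrays. A probe above background on a single array gives a bound: its dimmer reading was replaced, where it was smaller, by that array's lowest signal flagged well above background, which was 125 for the control and 57.8 for EP4 cKO. A gene was read by its brightest probe with a value, and 14679 genes had one. Across those genes 4.88% exceeded 2-fold upward and 7.98% exceeded it downward in EP4 cKO, and at 1.5-fold these shares were 9.86% and 18.7%. The balance between higher and lower depended on scaling: the 2-fold shares were 6.42% higher and 6.27% lower with 75th percentile scaling, 4.12% and 2.69% after normexp with quantile normalization, 7.68% and 5.24% after loess, and 39.7% and 2.30% when the arrays were scaled to the E1A spots, control probes for spike-in transcripts (whether these were added was not given in the sources used here). E1A scaling moved the median of all genes up by 0.98 on the log2 scale, so ratios below 0 that are closer to it than -1.04, the median of the E1A probes, turn to above 0.

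Probes of the targeted gene differed in direction, and neither was lower in EP4 cKO by more than its error. The brighter Ptger4 probe read 6227 for Villin-Cre and 5661 for EP4 cKO, a log2 ratio of -0.14 ± 0.20. The dimmer probe read 393 and 592, a ratio of 0.59 ± 0.23. Whether these probes lie in the floxed part was not determined here, so neither checks the labels, and the arrays are called control-labelled and cKO-labelled below.

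The starts of these genes are shown first, because the sealing claudins Cldn3 and Cldn4 are next to each other in the gene order of chromosome 5 and were both higher on the cKO-labelled array, while the pore-forming Cldn2 was lower there with both of its probes (higher only under E1A scaling). RefSeq promoters of the build GRCm38.p6, 250 bases before to 50 bases after each start, were available for 8 of the 10 genes; Cldn8 and Cldn23 were not among them. Each is printed 5′ to 3′ on the strand of its gene. Capitals mark matches on either strand to 5 motifs: the core of the cAMP response element TGACG, the GAS element TTCNNNGAA, the GC box GGGCGG, the TATA box TATAAA and the Snail E-box CAGGTG. No printed match overlaps another.
Cldn3, chr5:134985964-134986263, plus strand: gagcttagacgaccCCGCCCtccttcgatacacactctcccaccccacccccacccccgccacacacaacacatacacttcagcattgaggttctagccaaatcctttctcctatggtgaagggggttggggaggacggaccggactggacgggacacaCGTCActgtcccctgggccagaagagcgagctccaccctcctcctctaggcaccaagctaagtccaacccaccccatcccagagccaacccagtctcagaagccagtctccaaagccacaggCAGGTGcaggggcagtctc
Cldn4, chr5:134946885-134947184, minus strand: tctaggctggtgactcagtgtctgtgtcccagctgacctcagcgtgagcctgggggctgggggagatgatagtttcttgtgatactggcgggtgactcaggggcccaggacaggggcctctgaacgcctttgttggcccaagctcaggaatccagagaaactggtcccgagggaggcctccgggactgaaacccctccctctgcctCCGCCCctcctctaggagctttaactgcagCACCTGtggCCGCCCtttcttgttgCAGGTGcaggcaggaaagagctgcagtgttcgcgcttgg
Cldn2, chrX:139800558-139800857, plus strand: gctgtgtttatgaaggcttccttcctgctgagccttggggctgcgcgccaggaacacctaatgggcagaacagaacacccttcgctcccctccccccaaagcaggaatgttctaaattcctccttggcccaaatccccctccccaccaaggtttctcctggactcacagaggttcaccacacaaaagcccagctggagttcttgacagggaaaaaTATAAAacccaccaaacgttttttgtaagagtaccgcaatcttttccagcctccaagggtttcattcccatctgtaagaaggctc

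The neighbours shared the GC box, present once in the Cldn3 promoter and 2 times in that of Cldn4, and the Snail E-box, present once in Cldn3 and 2 times in Cldn4. Neither motif was particular to them: of the 8 genes with a promoter, 7 held a GC box, all but Cldn2, and 4 a Snail E-box, Cldn7 and Ocln besides the neighbours. Of all 32851 promoters in the table, 35.7% held a GC box and 20.2% a Snail E-box. The window of Cldn3 also held 1 core of the cAMP response element, a motif found in 20.8% of promoters, and that of Cldn4 held none. The Cldn2 window had a TATA box, found in 13.6% of promoters, and none of the other motifs. Base composition differed as well: G and C made up 60.7% of the Cldn3 window, 61.0% of that of Cldn4 and 51.3% of that of Cldn2, against a median of 52.7% over all promoters. The Tjp1 window was richer still, with 65.3% G and C, 31 CG dinucleotides (median of all promoters 7) and 2 GC boxes. The second of 2 listed starts of Cldn7 held a palindromic cAMP response element that matches the core on both strands, a GAS element (8.30% of promoters), a GC box and 2 Snail E-boxes, and the first start held none of the 5 motifs. These matches describe letters in a window and carry no measurement of binding.

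The pore-forming claudins did not move as a pair. Cldn2, which makes a channel for sodium and water and is known from crypt cells, had 2 probes. The brighter read 5823 on the control-labelled array and 4165 on the cKO-labelled array, a log2 ratio of -0.48 ± 0.20. The dimmer read 368 and 221, a ratio of -0.73 ± 0.25. Both probes were thus lower on the cKO-labelled array in the scaling used here, and neither reached 2-fold. Cldn15, the other cation pore of the gut, read 5793 and 6320, a ratio of 0.13 ± 0.20, which is within its error. Of all genes with a value, 23.0% were as low as Cldn2 or lower and 28.0% as high as Cldn15 or higher. The ratio of Cldn15 exceeded that of Cldn2 by 0.61 ± 0.29, and by 0.57 to 0.73 under the 8 other ways of processing.

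**Figure D1:**
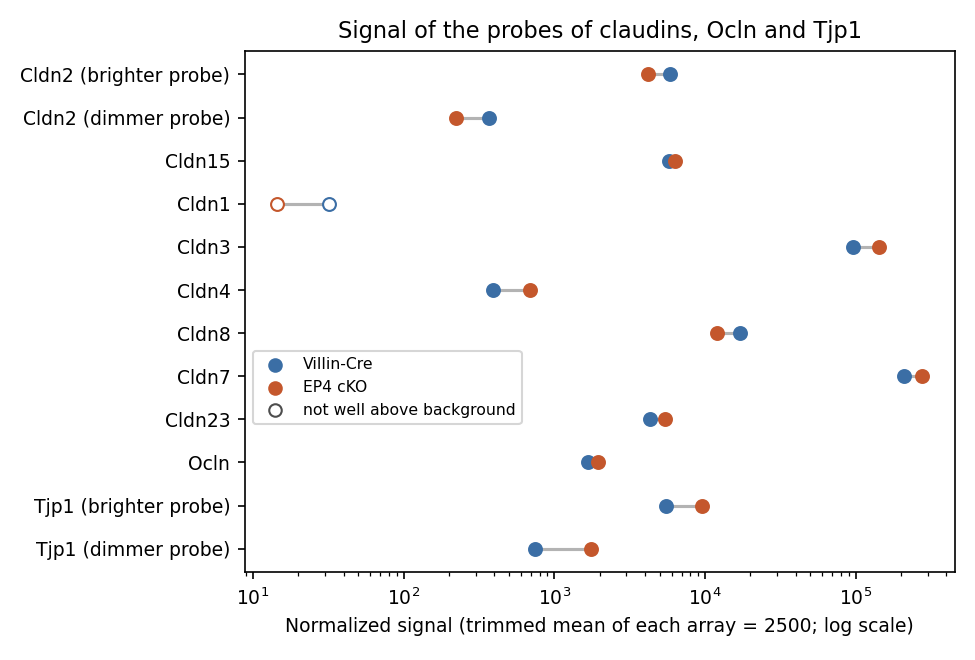
Normalized signal of each of the 12 probes of the 10 genes (horizontal axis, log scale; trimmed mean of each array 2500) on the control-labelled (Villin-Cre) array (blue) and the cKO-labelled array (orange), 1 array each, with open points for signals not well above background. Probes of Cldn2 and Cldn8 lie to the left on the cKO-labelled array in this scaling (to the right under E1A scaling), Cldn1 has open points only, and the probes of the other 7 genes lie to the right; levels of different probes are not comparable.

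Among the sealing claudins 2 were higher, 1 was lower and 1 could not be read. Cldn3, a barrier claudin of colon surface and crypt, read 96492 on the control-labelled array and 142047 on the cKO-labelled array. Its log2 ratio was 0.56 ± 0.20, or 1.47-fold, and 10.4% of all genes were as high or higher. Cldn4, its neighbour on chromosome 5, read 389 and 688, a ratio of 0.82 ± 0.23 or 1.77-fold, which 6.63% of all genes equalled or exceeded. Its ratio and that of Tjp1 were the highest of the 9 genes, and which of them led depended on the processing. Its ratio lay beyond 1.5-fold, as 9.86% of all genes did, and short of 2-fold. The gap between the ratios of Cldn4 and Cldn3 was 0.26 ± 0.31, less than its error.

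Cldn8, a sealing claudin of distal colon and kidney, went against these. It read 17146 and 12049, a log2 ratio of -0.51 ± 0.20 that turned to 0.54 under E1A scaling, and 21.7% of all genes were as low or lower. The ratio of Cldn8 lay 1.07 ± 0.29 below that of Cldn3 (a difference of -1.07, between -1.11 and -1.07 under the alternatives) and that of Cldn4 exceeded it by 1.33 ± 0.31 (1.28 to 1.53). These differences between genes do not depend on a single scaling factor between the arrays, and both were larger than 3 times their software error. Cldn1, a claudin of skin and many epithelia, read 32.2 and 14.5, not well above background on either array, so no ratio is given for it.

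Cldn7 and Cldn23, whose part in the barrier is less settled, both had ratios above 0. Cldn7, which is spread along the sides of colon cells and binds EpCAM, read 208920 on the control-labelled array and 277240 on the cKO-labelled array, a log2 ratio of 0.41 ± 0.20 or 1.33-fold. Cldn23, a claudin of differentiated colonocytes, read 4311 and 5455, a ratio of 0.34 ± 0.20 or 1.27-fold. As many as 14.6% of all genes were as high as Cldn7 or higher, and 17.0% as high as Cldn23.

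The strand protein and the scaffold differed in size. Ocln, the gene of occludin, read 1674 and 1961, a log2 ratio of 0.23 ± 0.21 or 1.17-fold, close to its error, and 22.2% of all genes were as high or higher. Tjp1, the gene of ZO-1, had 2 probes. The brighter read 5543 on the control-labelled array and 9535 on the cKO-labelled array, a ratio of 0.78 ± 0.20 or 1.72-fold. The dimmer read 748 and 1750, a ratio of 1.23 ± 0.21 or 2.34-fold. Both Tjp1 probes were therefore higher on the cKO-labelled array, the dimmer past 2-fold and the brighter, by which the gene is counted, short of it; 7.04% and 3.56% of all genes were as high or higher than these ratios. The probes of Tjp1 differed by more than the median of 0.19 between the 2 brightest probes of the 4103 genes that had them on both arrays, and by less than the 90th percentile, 0.72.

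Over all 10 genes, 9 had a value, 7 of them above 0 and 2 below (all 9 above 0 under E1A scaling). None exceeded 2-fold in either direction. Cldn4 and Tjp1 passed 1.5-fold upward, and none passed it downward. That count moved with the processing: Cldn3 also passed upward with 75th percentile scaling (0.72), after normexp with quantile normalization (0.65) and after loess (0.64), Cldn7 passed after normexp with quantile normalization (0.61), all but Cldn2 and Cldn8 passed under E1A scaling, Cldn2 passed downward with the mean of its probes (-0.61), and Cldn1 did when dim probes were not bounded (-1.16). The median ratio was 0.34, with a range from -0.51 to 0.82, and the median of all genes was -0.10, with 36.3% of genes above 0. Ratios of 8 of the 9 genes were larger than their software error, all but that of Cldn15, and 6 were larger than 2 such errors. All genes drift with signal: when genes were put in 10 bins of mean signal, the median ratio was -0.29 in the bin that held Cldn4, -0.13 in that of Cldn2, Cldn15 and Cldn23, and -0.02 in the brightest, which held Cldn3 and Cldn7.

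**Figure D2:**
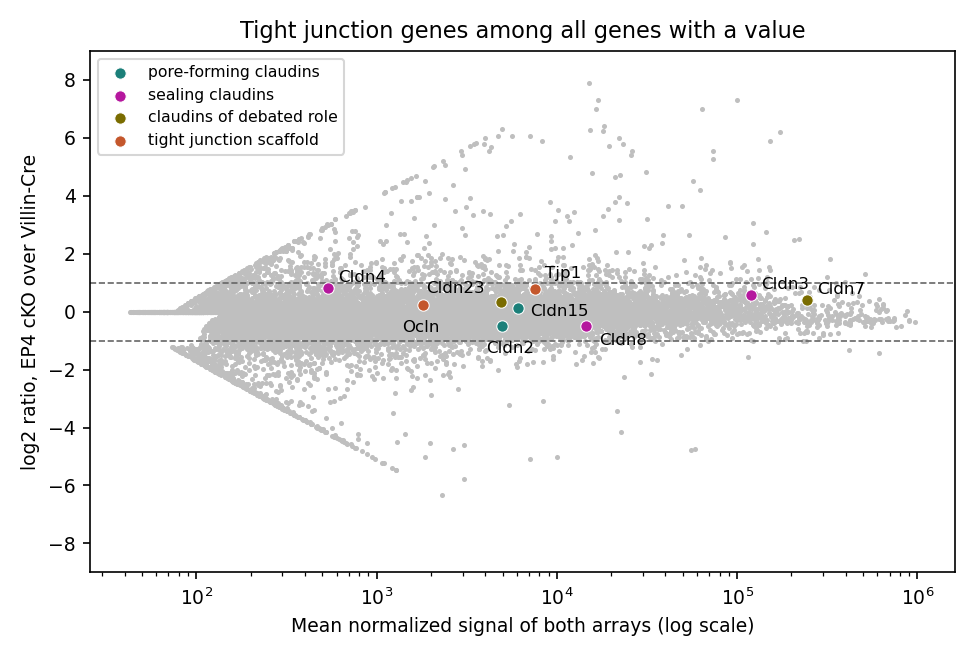
Log2 ratio of the cKO-labelled array over the control-labelled array (vertical axis) against the mean normalized signal of both arrays (horizontal axis, log scale) for the 14679 genes with a value (grey) and the 9 tight junction genes with a value (coloured by role); dashed lines mark 2-fold, and the straight edges of the grey cloud are bounds of dim probes. All 9 coloured points lie between the dashed lines, with Cldn2 and Cldn8 below 0 in this scaling (above 0 under E1A scaling).

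The question of pore-forming against sealing claudins could be asked of 5 genes. The median ratio was -0.18 for the pore-forming (Cldn2 and Cldn15) and 0.56 for the sealing (Cldn3, Cldn4 and Cldn8), a difference of -0.74, and the means differed by -0.47. The groups overlapped: Cldn15 lay above Cldn8, by 0.63 ± 0.29, so no order of the classes holds for every gene in them. The widest gap across the classes was between Cldn2 and Cldn4, -1.30 ± 0.31, and it was between -1.45 and -1.22 under the alternatives. That between Cldn2 and Cldn3 was -1.04 ± 0.29. When dim probes were not bounded, Cldn1 entered the sealing group at -1.16 and the difference of the medians shrank to -0.20.

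**Figure D3:**
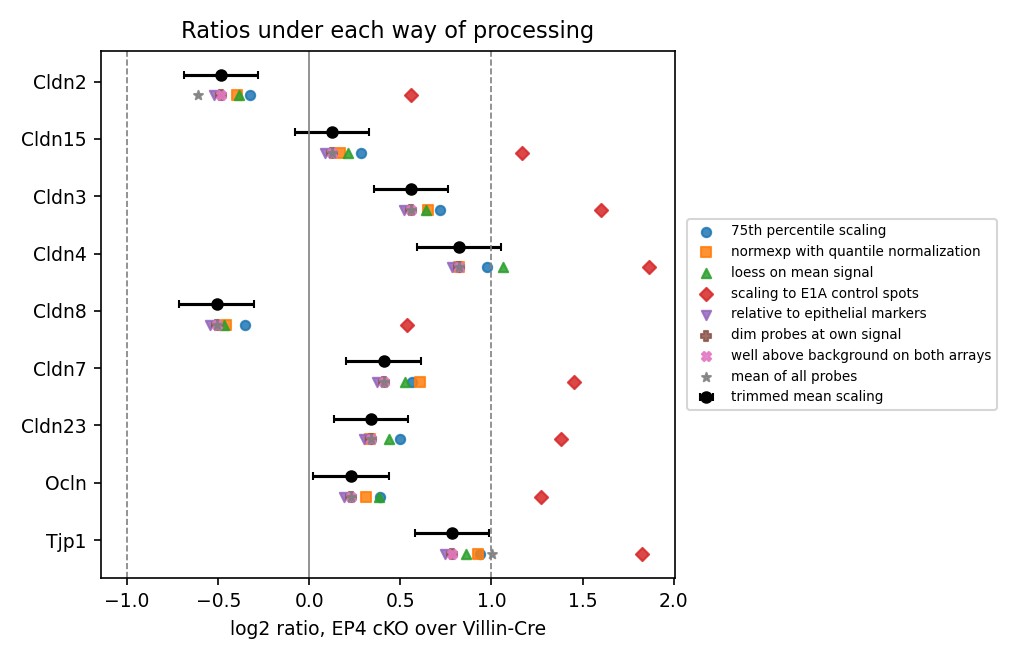
Log2 ratio of the cKO-labelled array over the control-labelled array (horizontal axis) of each gene with a value, as reported (black, with the error of the scanner software) and under 8 other ways of processing (coloured symbols); dashed lines mark 2-fold. Scaling to the E1A control spots shifts all 9 genes to the right, turning Cldn2 to 0.56 and Cldn8 to 0.54, and the other symbols keep the sign of each gene.

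Other genes of the tight junction, 57 with a named probe on 3 lists, had a median ratio of 0.00 over the 39 with a value, 19 above 0 and 19 below. The side of 0 depended on scaling: of those 19 below it, 18 turned to above 0 under E1A scaling (all but Mpdz), and 4 each with 75th percentile scaling, after normexp with quantile normalization and after loess. At 2-fold 3 of the 39 were higher and 1 lower, against 4.88% and 7.98% of all genes. Of 20 further claudins 19 had a named probe, and 13 of them were not well above background on either array, among them Cldn5, the claudin of blood vessels. Cldn10, which has pore-forming isoforms, read 84.3 on the control-labelled array, not well above background, and 298 on the cKO-labelled array, at least 2.37-fold higher (a log2 ratio of 0.95 after normexp with quantile normalization). Cldn12, a widely made claudin, read 14871 and 11181, a ratio of -0.41. Cldn14 was at -0.02, Cldn20 at -0.12, Cldn9 at -0.26, and Cldn18 had a bound of 0.54.

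Among 12 other membrane proteins of the junction, 8 had a value, with a median of 0.31, and 1 was past 2-fold. Igsf5, which encodes the junctional adhesion molecule JAM4, read 11163 and 23354 at its brighter probe, a log2 ratio of 1.06 ± 0.20 or 2.09-fold. Its dimmer probe read 3216 and 6328, a ratio of 0.98 ± 0.20, so both probes moved alike. The proteins of contacts where 3 cells meet did not move alike: Lsr, the angulin of these corners, was at -0.21, Ildr1, a second angulin, at 0.80, and Marveld2, which encodes tricellulin, at 0.02. F11r, the gene of junctional adhesion molecule A, was at 0.37, Marveld3, a relative of occludin, at 0.25, and Crb3, the apical polarity protein Crumbs 3, at 0.77. Cxadr, the coxsackievirus and adenovirus receptor, was at -0.42 by its brightest probe, and its dimmer probes read 1.03 and -0.44, in opposite directions.

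Of 26 other plaque proteins 25 had a value, with a median of -0.00. Pard6b, a subunit of the Par polarity complex, read 1897 and 3838, a log2 ratio of 1.02 ± 0.20 or 2.02-fold, which came to 0.98 relative to the epithelial markers. Mpdz, a scaffold with many PDZ domains, read 157 on the control-labelled array and 13.9 on the other, not well above background there, at least 2.71-fold lower by 1 of its 3 probes, with -0.34 after normexp with quantile normalization. Tjp3, which encodes ZO-3, a relative of ZO-1, was at -0.18. Cgn, the gene of cingulin, was at 0.55 and its relative Cgnl1 at -0.52. Ybx3, a transcription factor that binds ZO-1, was at -0.06. Prkcz, an atypical protein kinase C of the Par complex, had -0.70 at its brightest probe and -1.37 and -0.22 at the others. Its brighter relative Prkci, on the same list, read 14923 and 15386, a ratio of 0.04.

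The junctions below the tight junction were measured with 15 genes of adherens junctions and desmosomes. All 15 had a value, none was past 2-fold, and the median was 0.28. At 1.5-fold 5 of the 15 were higher and none lower, against 9.86% and 18.7% of all genes. They were Dsg2, a desmosomal cadherin, at 0.70, and Pkp3, a desmosomal plaque protein, at 0.67. The others were Perp at 0.61, the alpha-catenin gene Ctnna1 at 0.60 and plakoglobin, Jup, at 0.59. Relative to the epithelial markers Perp, Ctnna1 and Jup fell short of 1.5-fold, at 0.57, 0.56 and 0.56, and Dsg2 was at 0.23 with the mean of its probes. Cdh1, the gene of E-cadherin, read 67618 and 62930, a ratio of -0.10.

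**Figure D4:**
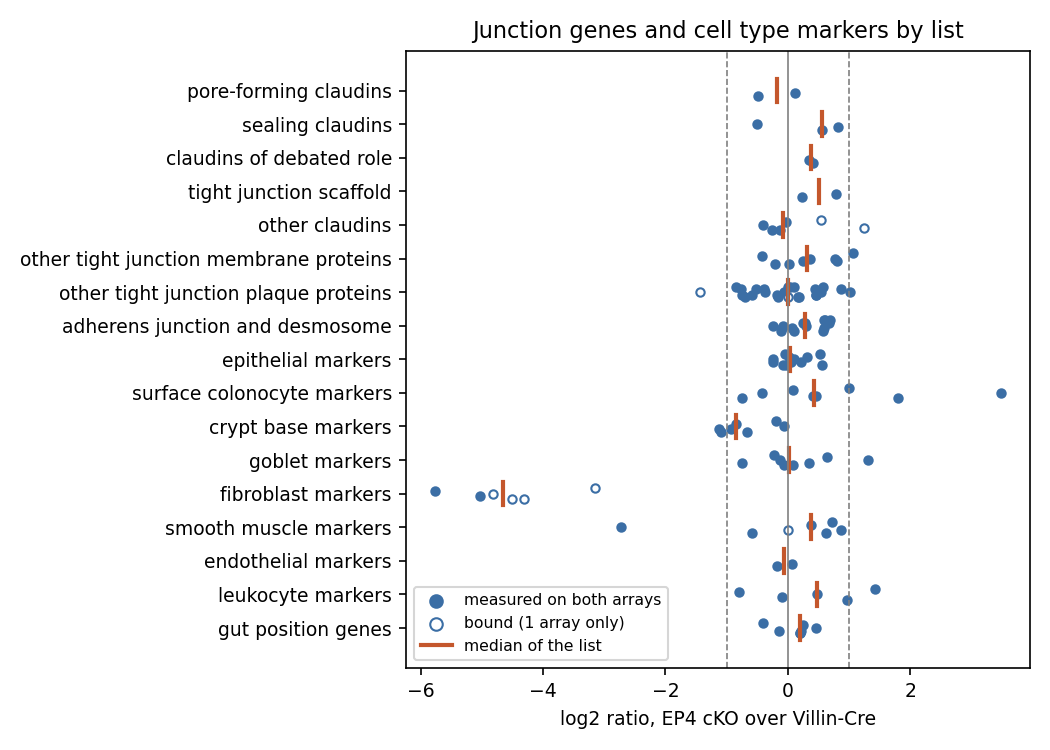
Log2 ratio of the cKO-labelled array over the control-labelled array (horizontal axis) for the genes of 17 lists (rows), with filled points for genes well above background on both arrays, open points for bounds and an orange bar at the median of each list; dashed lines mark 2-fold. Tight junction and epithelial lists centre near 0 in this scaling, between -0.18 and 0.56, fibroblast markers lie far to the left (median -4.66), and crypt base markers lie below 0 (median -0.85); under E1A scaling all lists shift to the right and the crypt base median turns to above 0.

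The arrays also differed in markers of the cells the tissue holds, and in bulk tissue fewer cells of a type and less RNA per cell cannot be told apart. Markers shared by gut epithelium, the tissue that makes the junctions, were all measured and differed little: 12 of 12 had a value, with a median of 0.04, a range from -0.25 to 0.56 and a summed signal of 2940396 on the control-labelled array and 3061287 on the cKO-labelled array. Taken relative to these markers, the ratios of the 9 genes were lower by 0.04 (Cldn3 at 0.52, Cldn4 at 0.78, Tjp1 at 0.75). Stages of the epithelium differed more. Of 8 markers of surface colonocytes 3 were past 2-fold higher and none lower, with a median of 0.44 and summed signals of 842510 and 1339237: the keratin gene Krt20 at 1.80, the sodium-proton exchanger gene Slc9a3 at 3.49 (by 1 of its 2 probes) and the water channel gene Aqp8, which was 2.004-fold higher (a ratio of 0.97 relative to the epithelial markers). Guca2a, on the same list, was at -0.75. Of 8 crypt base markers 7 had a value, all below 0 in the scaling used here, with a median of -0.85, and 2 were past 2-fold lower: the stem cell receptor gene Lgr5 read 1541 and 723, a ratio of -1.09, and Rgmb was at -1.12. Neither stayed past 2-fold after normexp with quantile normalization, at -0.77 for Lgr5 and -0.11 for Rgmb, nor after loess, at -0.91 and -0.53, nor with 75th percentile scaling, at -0.94 and -0.96, nor under E1A scaling, at -0.05 and -0.07, and Rgmb was at -0.91 with the mean of its probes. Summed signals of that list were 47253 and 29561. The part of surface and crypt cells in the ratios of Cldn2, Cldn3, Cldn4 or Cldn23 was not tested.

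Fibroblast markers differed most. Of 8 fibroblast markers 6 had a value and all 6 were past 2-fold lower, with a median of -4.66 and summed signals of 15519 and 345 as read: Dcn at -5.77, Col1a2 at -5.03, and Col3a1, Col1a1, Mfap5 and Lum as bounds of -4.81, -4.50, -4.31 and -3.15. After normexp with quantile normalization these 6 were still past 2-fold lower but closer to 0, with Dcn at -4.17, Col1a1 at -2.46, Mfap5 at -2.12 and Lum at -1.33. On the cKO-labelled array 2 of the 9 fibroblast probes were well above background, so the lower sum is itself uncertain: with the other signals raised to the lowest one well above background it was 626, against 15621 for the control. Smooth muscle markers did not follow, with 7 of 8 measured, a median of 0.38, summed signals of 38171 and 55212, and 1 past 2-fold lower, Cnn1 at -2.73 (-1.04 after normexp with quantile normalization). Endothelial markers were measured for 2 of 8, Pecam1 at -0.17 and Vwf at 0.07, with summed signals of 1325 and 1259, and the defining markers Cdh5 and Kdr were not well above background on either array. Leukocyte markers were measured for 5 of 8, with a median of 0.47, summed signals of 61239 and 80652, and 1 past 2-fold higher, Cd52 at 1.43. Most of that sum was Itgam, and without it the sums were 11747 and 11971, with Ptprc at 0.97, Cd3e at -0.10 and Csf1r at -0.79. Goblet cell markers had a median of 0.01, summed signals of 1523601 and 1950668, and 1 of 8 past 2-fold higher, Clca1 at 1.31. Without Clca1 the sums were 1228076 and 1217232. Of the 8 goblet genes 4 were above 0 and 4 below. Past 1.5-fold lower was Tff3, at -0.745 (280741 and 167451), and past it higher were Clca1 and Fcgbp (0.64). Genes that mark position along the gut, most of them distal Hox genes, were measured for 7 of 8, none past 2-fold. Their median was 0.21, with a range from -0.40 to 0.46 and summed signals of 301250 and 279005. Most of that sum was Hoxb13, and without it the sums were 26762 and 30074. The part of these cells in the ratios of the junction genes was not tested.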

How the data were processed

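Gene expression was measured in whole colon RNA of Villin-Cre and EP4 cKO mice, 1 array per genotype on the same slide, mapped from the genotype labels. The deposited intensity is the processed signal of each spot, which the authors' scanner software (Feature Extraction 12.0.3.1 by the file header, 11.5.1.1 by the submitters' notes) background-subtracted and detrended. The trimmed mean scaling described in the authors' methods (2% removed at each end, target 2500) is not in these intensities and was repeated here, with factors of 3.45 and 2.68. Control spots and outlier spots were left out, spots of a probe were averaged, and flags for signal well above background were used as given: 45.4% of 56593 probes passed in the control and 51.6% in EP4 cKO, and 0 spots were saturated. Among 289 probes with replicate spots the median SD of the log2 ratio was 0.035. The number of arrays limits the precision.

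Probes were named through RefSeq accessions (GRCm38.p6 table), which matched 32989 probes. The genes and the 17 lists were chosen with earlier results of these data known. Named are all 10 genes with every probe, Ptger4, up to 6 genes past 2-fold of each other list in each direction and, for the tight junction lists, the 6 brightest; any other gene was chosen after its values were seen. The values of some single genes that this rule names are not given. Genes of like pattern were not sought, since 2 arrays give none. No test was made.

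The alternatives were 75th percentile scaling, normexp (offset 50, on median spot signals) with quantile normalization, loess (span 0.3), scaling to 252 E1A spots of 8 probes, ratios relative to epithelial markers, dim probes at their own signal, only probes measured on both arrays, all probes of a gene averaged and a 1.5-fold threshold. The steps were tested on simulated data. Python 3.11.15 (numpy 2.4.6, pandas 2.3.3, statsmodels 0.14.6, matplotlib 3.10.9) and R 4.3.3 (limma 3.58.1) were used.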

Additional observations from a re-analysis of the deposited data

How the results depend on the processing

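With 1 array per genotype no array could be left out, and no paired analysis was possible because the genotypes share fewer than 2 replicate numbers. Signs of Cldn15, Cldn3, Cldn4, Cldn7, Cldn23, Ocln and Tjp1 held under 8 of 8 alternatives; those of Cldn2 and Cldn8 held under 7 and turned under E1A scaling, to 0.56 and 0.54. The count of the 10 genes past 2-fold higher was 0 in the report and 1 after loess (Cldn4, 1.06). It was 1 with the mean of all probes (Tjp1, 1.004) and 7 under E1A scaling, and 2 were past 1.5-fold. Of all genes, 7.68% were past 2-fold higher after loess, 4.57% with the mean of all probes and 39.7% under E1A scaling. At 1.5-fold 9.86% of all genes were higher. The count past 2-fold lower, also 0, was 1 with dim probes at their own signal (Cldn1, -1.16), a setting under which 31.7% of all 22909 genes were past 2-fold lower and 5.12% past 2-fold higher. The median of the genes, 0.34, was 1.38 under E1A scaling. The difference of pore-forming minus sealing claudins, -0.74, was -0.20 with dim probes at their own signal, where dim readings of Cldn1 enter. Other tight junction genes past 2-fold numbered 4 in the report and 2 after normexp with quantile normalization. They numbered 2 for probes well above background on both arrays and 21, all higher, under E1A scaling. With dim probes at their own signal there were 16 (3 higher and 13 lower, of all 57). At 1.5-fold there were 11 of 39, 6 higher and 5 lower, against 9.86% and 18.7% of all genes. E1A scaling adds 1 constant to every ratio measured on both arrays. Apart from the entry of Cldn1, the cause was not tested for the other alternatives. Signal over background limits Cldn1, Cldn10 and Mpdz.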
